A study of Mus musculus with 11 samples.

Results

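The Fos family of the AP-1 transcription factors has 4 members in the mouse, Fos, Fosb, Fosl1 and Fosl2, and these 4 genes were followed through RNA libraries of knee articular cartilage. They were taken by name from 55421 counted genes, and all 4 were among the 18125 genes that passed a filter on low counts. The 11 libraries were made from poly(A) RNA of C57BL/6 mice aged 14 weeks and fell into 3 groups. Of mice labelled c-FosWT, the contralateral knee is represented by 4 libraries and the operated knee by 3; the operated knee had undergone destabilization of the medial meniscus (DMM), a surgical model of osteoarthritis, 4 weeks earlier. Mice labelled c-FosDCh gave 4 libraries from the DMM knee, also taken 4 weeks after surgery. The label c-FosDCh was taken to mean that chondrocytes lack Fos. The labels do not state the Cre line or the part of Fos that is deleted, and contralateral knees of that genotype were not analysed here. The 11 libraries came from 8 animals, since all 3 c-FosWT DMM libraries have a contralateral partner from the same mouse.

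Fos family proteins are basic leucine zipper factors that do not form stable dimers with themselves. They pair with Jun proteins, and the pair binds AP-1 sites and cyclic AMP response elements in DNA. Fos and Fosb are classical immediate early genes with strong transactivation domains. Fosl1, also called Fra-1, and Fosl2, also called Fra-2, lack such domains and usually change more slowly. In the skeleton Fos is needed to form osteoclasts, Fosl1 and Fosb variants affect bone formation, and Fosl2 has roles in chondrocytes and osteoblasts.

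In the GRCm38 build with GENCODE M21 all 4 are protein-coding genes. Fos (ENSMUSG00000021250.13) lies at chr12:85473890-85477273 on the plus strand and Fosb (ENSMUSG00000003545.3) at chr7:19302696-19310051 on the minus strand. Fosl1 (ENSMUSG00000024912.6) lies at chr19:5447547-5455946 and Fosl2 (ENSMUSG00000029135.10) at chr5:32135801-32157842, both on the plus strand. The exons of each gene cover 2352 bases in Fos, 6243 in Fosb, 2033 in Fosl1 and 9680 in Fosl2. The exons of Fosl1 overlap those of the antisense gene Ccdc85b over 1163 bases, and Ccdc85b had 179 to 437 counts per library, so the Fosl1 counts are uncertain.

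The RefSeq promoter table held no window for Fosl1, and that of Fosl2 overlapped annotated exons and was left out. The windows of 250 bases before the RefSeq start sites of Fos and Fosb are shown. They are given 5′ to 3′ on the gene's own strand, from RefSeq on GRCm38.p6, for Fos at chr12:85473640-85473889 on the plus strand and for Fosb at chr7:19310046-19310295 on the minus strand. Capitals mark matches to the motifs searched on both strands.
Fos: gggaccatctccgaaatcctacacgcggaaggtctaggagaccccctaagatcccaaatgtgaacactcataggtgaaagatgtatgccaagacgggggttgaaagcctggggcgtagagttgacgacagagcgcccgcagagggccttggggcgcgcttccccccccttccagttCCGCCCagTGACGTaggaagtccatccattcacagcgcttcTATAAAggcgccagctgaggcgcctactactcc
Fosb: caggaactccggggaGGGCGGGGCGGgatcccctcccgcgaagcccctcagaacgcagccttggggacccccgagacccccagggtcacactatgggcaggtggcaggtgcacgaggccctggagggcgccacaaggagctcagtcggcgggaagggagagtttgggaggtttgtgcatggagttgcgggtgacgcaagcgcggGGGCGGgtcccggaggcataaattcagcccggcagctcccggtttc

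The Fos window held 1 cyclic AMP response element core, TGACGT, at 66 to 61 bases before the start, and 1 TATA box, TATAAA, at 33 to 28 bases before it. It also held 1 GC box, GGGCGG, on the other strand at 74 to 69 bases before the start. The Fosb window held 3 GC boxes and neither of the other motifs, at 235 to 230, 230 to 225 and 46 to 41 bases before the start, of which the first and the second share a base. No match to the CArG box that serum response factor binds, to TGACGTCA or to the AP-1 site TGANTCA lay in either window. Bases farther upstream were not searched, so sites there would be missed. Of 32851 RefSeq promoter windows of the same length, 6.469% held TGACGT, 12.368% TATAAA, 32.742% GGGCGG, 1.467% a CArG box, 1.546% TGACGTCA and 6.749% TGANTCA. Such matches describe the letters in these windows and not binding.

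The libraries held 13593454 to 18280558 gene counts (median 16387548). Levels are CPM (counts relative to library size) scaled by edgeR's trimmed mean of M values, and ± is the SD between libraries of a group or, for a fold change, its standard error. All 19 cartilage markers, such as Col2a1 and Acan, were detected in every library, with summed levels of 23700 to 44900 CPM in contralateral, 7310 to 19700 in c-FosWT DMM and 25200 to 91300 in c-FosDCh DMM libraries. The libraries also held RNA of other tissues. Osteoblast markers summed to 24700 to 35000 CPM in contralateral, 33900 to 37400 in c-FosWT DMM and 20500 to 59300 in c-FosDCh DMM libraries, and skeletal muscle markers to 54.1 to 6050, 256 to 9400 and 93.6 to 1180 CPM. Marrow cells were a further source. As a marrow score, the log2 CPM of 25 markers of erythroid cells and granulocytes were averaged. It was 7.13 ± 0.78 in contralateral, 8.48 ± 0.40 in c-FosWT DMM and 6.31 ± 1.67 in c-FosDCh DMM libraries (n = 4, 3 and 4). The summed levels of these markers were 5970 to 17200, 15600 to 27500 and 841 to 14600 CPM in the same order, and none of the 25 was at 0 in any library. Replicate 4 of the c-FosDCh DMM libraries had the lowest marrow score, 4.01, and replicate 3 the next lowest, 6.15. Fewer cells of a type and less RNA per cell cannot be told apart in these bulk libraries.

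Fosl2 was the most abundant family member, and the order of the levels per kb of exon was Fosl2, Fos, Fosb, Fosl1 in 11 of 11 libraries. Per kb of exon Fosl2 stood 1.7 to 5.17 times above Fos. Averaged over the libraries, Fosl2 made up 70.2% of the summed family level per kb of exon (59.4 to 82.4%) and Fos 25.6% (15.9 to 35%). Fosb contributed 3.46% (1.23 to 6.55%) and Fosl1 0.757% (0.283 to 1.36%). With the longest transcript in place of all exons, the mean shares were 74.7%, 20.6%, 4.13% and 0.595% in the same order of genes. The ranges over libraries did not touch between Fosl2 and Fos or between Fos and Fosb. Those of Fosb and Fosl1 did, although Fosb was the higher of both in each library.

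**Figure D1:**
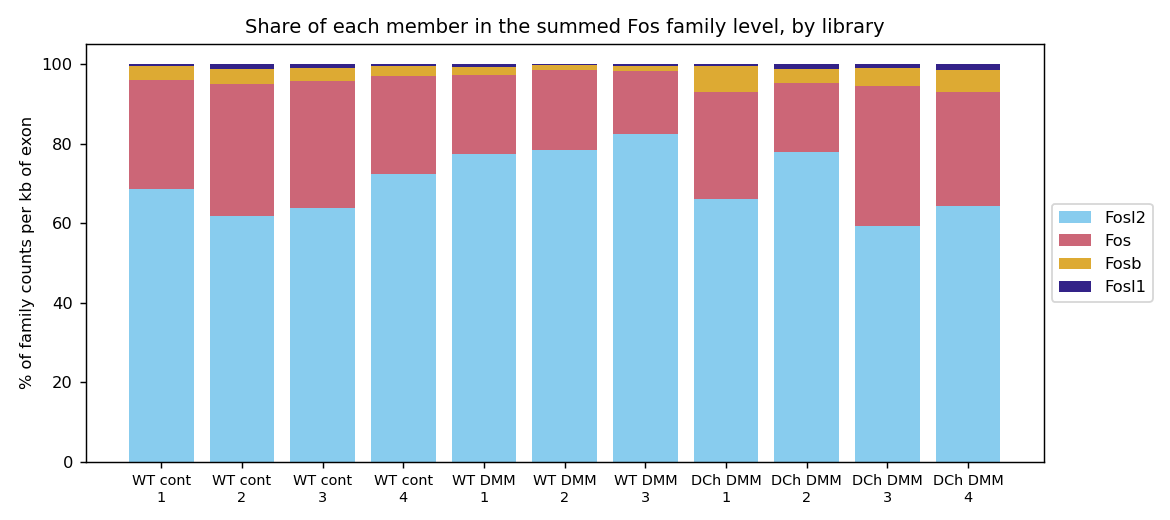
Share of each Fos family member in the summed family counts per kb of exon, in percent on the vertical axis, with 1 bar for each of the 11 libraries. Fosl2 is the largest part of every bar, from 59.4 to 82.4%, and the Fosl2 part is larger in the 3 c-FosWT DMM libraries than in any contralateral library.

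The sum and the make-up of the family were described by group, with no test. The summed family level was 28.7 ± 2.42 CPM per kb of exon in contralateral, 26.6 ± 2.93 in c-FosWT DMM and 35.4 ± 9.63 in c-FosDCh DMM libraries (n = 4, 3 and 4). The share of Fosl2 was 66.7 ± 4.82%, 79.3 ± 2.67% and 66.9 ± 7.78% in these groups. The share of Fos was 29.3 ± 3.95%, 18.7 ± 2.37% and 27.1 ± 7.25%, so that Fos had its smallest mean share in the c-FosWT DMM libraries. Fosb held 3.28 ± 0.678%, 1.54 ± 0.519% and 5.08 ± 1.27%, with its largest mean share in the libraries labelled c-FosDCh.

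Fos, the gene named by the deletion label, had its highest group mean in the libraries that carry this label. In order of replicate number, Fos measured 17.1, 24.8, 22.0 and 15.7 CPM in contralateral knees, 12.1, 14.1 and 9.01 CPM in c-FosWT DMM knees, and 19.4, 10.9, 29.5 and 33.0 CPM in those labelled c-FosDCh. The raw counts behind these levels were 162 to 471. All 3 c-FosWT DMM libraries lay below all 4 contralateral ones, and the libraries labelled c-FosDCh ran from within the c-FosWT DMM range in replicate 2 to above the contralateral range in replicates 3 and 4. These Fos levels run against the label. A count over the whole gene does not test a deletion of part of it, or one in chondrocytes alone, so directions involving the libraries labelled c-FosDCh rest on the label.

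Fosb, whose protein also pairs with Jun proteins, ran at a lower level than Fos. A count per gene does not separate its full-length form from its truncated splice form. In the same order, Fosb measured 5.83, 7.78, 6.14 and 3.94 CPM in contralateral knees, 3.46, 2.29 and 1.89 CPM in c-FosWT DMM knees, and 12.6, 5.87, 10.6 and 16.8 CPM in those labelled c-FosDCh. The c-FosWT DMM libraries were the 3 lowest of all 11. The libraries labelled c-FosDCh all lay above them, and replicate 2 lay within the contralateral range.

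Fosl1 was close to the limit of detection, with counts of 4, 11, 9 and 6 in contralateral, 6, 3 and 4 in c-FosWT DMM and 3, 11, 10 and 17 in c-FosDCh DMM libraries. These are 0.251, 0.785, 0.54 and 0.319 CPM, 0.351, 0.172 and 0.222 CPM, and 0.219, 0.64, 0.63 and 1.35 CPM. The groups overlapped. A count of 3 has an exact Poisson 95% interval of 0.619 to 8.77 and a count of 17 one of 9.9 to 27.2, which cover counting error only. Differences in Fosl1 between single libraries were not tested.

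Fosl2 had the highest and steadiest levels. By replicate number it measured 176, 190, 182 and 190 CPM in contralateral knees, 193, 226 and 192 CPM in c-FosWT DMM knees, and 197, 200, 206 and 303 CPM in those labelled c-FosDCh, from 2661 to 3947 counts. Replicate 4 of the libraries labelled c-FosDCh stood apart at the top, and the other 10 libraries lay between 176 and 226 CPM. From the lowest to the highest library Fosl2 varied 1.72-fold, Fos 3.67-fold, Fosl1 7.86-fold and Fosb 8.86-fold.

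**Figure D2:**
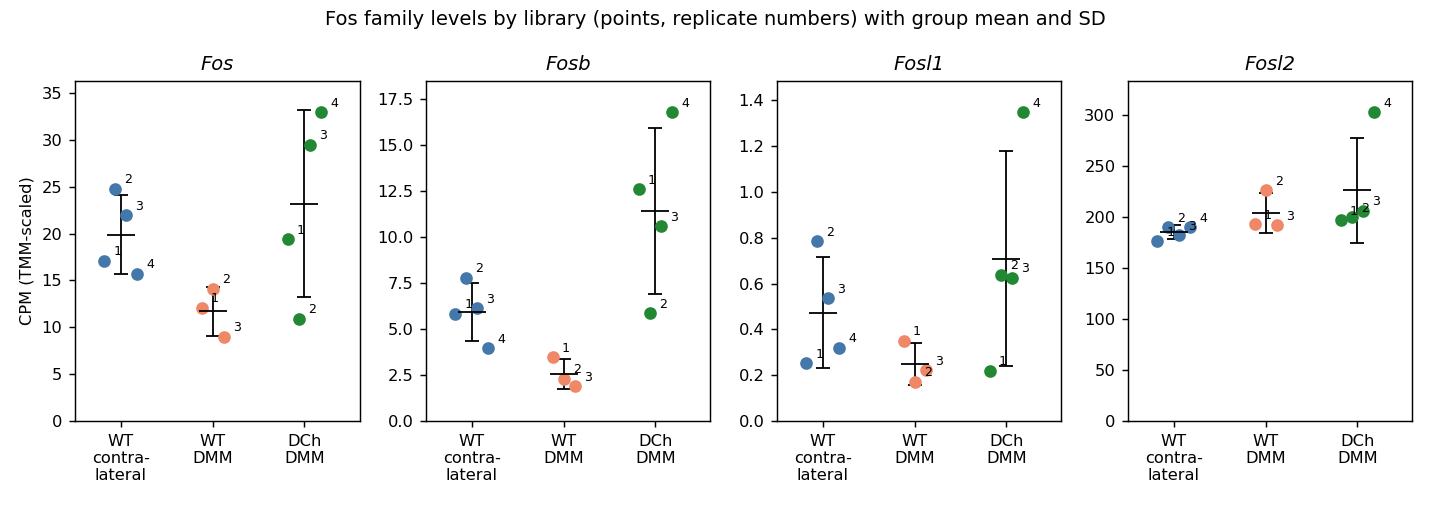
Level of each Fos family member in CPM (linear vertical axes starting at 0, 1 scale per gene), with 1 point per library marked by its replicate number, and the group mean and SD as black bars. WT is c-FosWT and DCh is c-FosDCh; the 3 c-FosWT DMM libraries lie below all contralateral ones for Fos and Fosb, and Fosl2 at 303 CPM in c-FosDCh DMM replicate 4 stands apart.

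The within-group SD of log2 CPM was 0.50 for Fos, larger than that of 80.8% of the 5257 tested genes within 1 log2 CPM of its level. For Fosb it was also 0.50, larger than in 70.2% of 3833 genes of like level. The corresponding values were 0.66 and 53.2% for Fosl1 and 0.20 and 45.0% for Fosl2, so Fosl1 and Fosl2 lay near the middle for their levels.

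The comparison of DMM with contralateral knees asks how surgery affects the family in c-FosWT mice. Fos was at 11.7 ± 2.58 CPM (n = 3) after DMM and 19.9 ± 4.26 CPM (n = 4) in contralateral knees, and Fosb at 2.55 ± 0.813 and 5.92 ± 1.58 CPM. No member passed edgeR's quasi-likelihood test with Benjamini-Hochberg adjustment over all tested genes. The log2 fold changes were -0.76 ± 0.35 for Fos (adjusted p = 0.254), -1.21 ± 0.37 for Fosb (0.182), -0.89 ± 0.63 for Fosl1 (0.432) and 0.14 ± 0.16 for Fosl2 (0.606). The groups did not overlap for 3 of the 4 members, lower after DMM in Fos and Fosb and higher in Fosl2. Among all tested genes 13.1% had non-overlapping groups with lower and 10.1% with higher levels after DMM, together 23.1%. The exact two-sided permutation test gave p = 0.0571 for each of these 3 members, the smallest value that 3 libraries against 4 allow, and 0.137 after adjustment over 12 tests.

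In this comparison edgeR called 0% of all genes, although 3605 had an unadjusted p under 0.05, limma-voom also called 0, and DESeq2 called 5.6% (825 genes), 3.31% of all in the lower direction. DESeq2 put Fosb past the threshold as lower (log2 fold change -1.19, adjusted p = 0.0431). In the animals with both knees, Fos was lower after DMM in 3 of 3 pairs, by log2 differences of -0.50, -0.81 and -0.79, and Fosb in 3 of 3, by -0.73, -1.71 and -1.01. Fosl1 differed by 0.34, -1.62 and -0.36 and Fosl2 by 0.14, 0.25 and 0.01. The marrow score was higher in the DMM knee of the same 3 pairs, by 0.84, 1.85 and 0.73. Over all c-FosWT libraries 13 of 13 tested erythroid and 12 of 12 granulocyte markers had positive fold changes after DMM, with medians of 1.64 and 0.79 on the log2 scale. With the marrow score as a covariate the log2 fold changes were -0.29 for Fos (adjusted p = 0.652) and -0.79 for Fosb (0.398). Muscle markers also had positive fold changes after DMM in 12 of 12 (median 1.12). So did 8 of 8 B cell, 7 of 8 osteoclast, 6 of 7 endothelial and 6 of 8 macrophage markers. Few were positive among cartilage (3 of 19, median -0.75), osteoblast (1 of 10, -0.3) and fibroblast markers (1 of 8, -0.34). With the cartilage score as a covariate the log2 fold changes were -0.6 for Fos (edgeR adjusted p = 0.884) and -0.99 for Fosb (0.832). The part of tissue make-up in the lower Fos and Fosb levels was not tested further.

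The comparison of the genotypes among DMM knees asks what differs in mice labelled c-FosDCh. Fosb rose 4.48-fold, from 2.55 ± 0.813 CPM (n = 3) in c-FosWT to 11.4 ± 4.52 CPM (n = 4) in the libraries labelled c-FosDCh (log2 fold change 2.16 ± 0.38, edgeR adjusted p = 0.0332). It was the only 1 of the 4 members called, in a comparison in which 10.6% of all tested genes were called higher and 14.4% in either direction. Fos was at 23.2 ± 10 against 11.7 ± 2.58 CPM (log2 fold change 0.98 ± 0.35, adjusted p = 0.0736), and its groups overlapped through replicate 2. Fosl1 had a log2 fold change of 1.47 ± 0.62 (0.109) and Fosl2 of 0.15 ± 0.16 (0.476), a sign that turned to -0.05 with scaling by library totals and to -0.03 without c-FosDCh DMM replicate 4. The groups did not overlap for Fosb, as for 17.2% of all tested genes in the same direction and 33% in either, and the exact permutation test gave p = 0.0571, the smallest possible.

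The Fosb call was lost, with edgeR adjusted p from 0.0505 to 0.143, when any 1 of 6 libraries was left out. These were contralateral replicates 1 and 2, c-FosWT DMM replicates 2 and 3 and c-FosDCh DMM replicates 3 and 4, and without each of them in turn 0 or 1 of all genes passed, in place of 2616. The Fosb log2 fold change itself stayed between 1.92 and 2.41 over the 11 omissions. DESeq2, which called 28.4% of all genes and 15.6% as higher, called Fos too (0.96, adjusted p = 0.0353), as did edgeR without c-FosDCh DMM replicate 2 (1.22, 0.0177). Without c-FosDCh DMM replicate 1, Fosl1 also passed (1.74, 0.0478). These omissions raised the calls among all genes too, to 4626 without replicate 2 and 4449 without replicate 1. The marrow markers ran the other way, with 0 of 13 erythroid and 0 of 12 granulocyte markers at a positive fold change, 7 of the 25 called lower, and 8 of 19 cartilage markers called higher. Markers of several other cell types ran lower too: positive fold changes were seen in 0 of 12 muscle (median -2.98), 0 of 8 osteoclast (-1.12, 4 called lower), 0 of 7 endothelial (-1.04), 0 of 8 B cell (-1.53) and 1 of 8 macrophage markers (-0.99, 1 called higher). Connective tissue fibroblast markers were mixed, with 5 of 8 positive (median 0.13, 1 called higher), as were osteoblast markers, with 4 of 10 (-0.19, 1 called higher). With the marrow score as a covariate the log2 fold changes were 1.47 for Fosb (adjusted p = 0.404), 0.17 for Fos (0.874), 0.27 for Fosl1 (0.91) and -0.16 for Fosl2 (0.728), and 0 genes of all passed. With the muscle score as a covariate Fosb had a log2 fold change of 2.3 (0.056), and the part of the other cell types in these differences was not tested.

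Set against the contralateral c-FosWT knees, which differ in genotype and surgery together, no member of the libraries labelled c-FosDCh passed. The log2 fold changes were 0.22 ± 0.31 for Fos (edgeR adjusted p = 0.79), 0.95 ± 0.33 for Fosb (0.584), 0.58 ± 0.53 for Fosl1 (0.695) and 0.29 ± 0.15 for Fosl2 (0.587). Of all tested genes edgeR called 0% here, with 1512 at an unadjusted p under 0.05, limma-voom called 0 and DESeq2 0.171%. Fosl2 was the 1 member without overlap between these groups, at 226 ± 51.4 against 185 ± 6.95 CPM, as were 2.28% of all tested genes in that direction and 4.4% in either. Its exact permutation p was 0.0286, the smallest that 4 against 4 allow, and 0.137 after adjustment over 12 tests. The 3 comparisons share libraries and are not independent of one another.

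**Figure D3:**
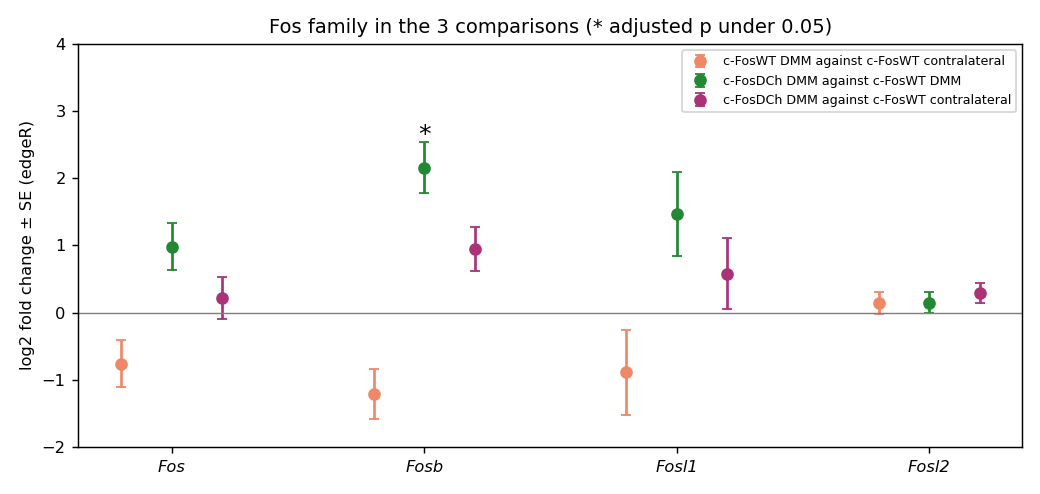
Log2 fold change with its standard error from edgeR (vertical axis) for the 4 Fos family members in the 3 comparisons, all from 1 fit of the 11 libraries. An asterisk marks the 1 value with an adjusted p under 0.05, Fosb at 2.16 ± 0.38 between the DMM groups.

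The relative use of Fosb and Fos was read from their counts in the same library, where scaling between libraries cancels. Per 100 Fos counts there were 34.1, 31.3, 27.9 and 25.1 Fosb counts in the contralateral libraries and 28.6, 16.2 and 21 in c-FosWT DMM knees. The libraries labelled c-FosDCh had 64.7, 53.7, 35.9 and 50.7. All 4 of them lay above all 7 c-FosWT libraries, although the exact 95% binomial intervals, which cover counting error alone, overlapped in part. That of replicate 3 (29.9 to 42.9) overlapped those of 6 of the 7 c-FosWT libraries. Those of replicates 2 (41.8 to 68.8) and 4 (42.8 to 60.0) overlapped that of contralateral replicate 1 (26.6 to 43.3), and that of replicate 1 (53.1 to 78.6) overlapped none. Against c-FosWT DMM libraries, the log2 ratio of Fosb to Fos of the libraries labelled c-FosDCh was higher by 1.18 (exact two-sided permutation p = 0.0571) and against contralateral ones by 0.76 (p = 0.0286). Both are the smallest p these group sizes allow, and both became 0.171 after adjustment over 18 ratio tests. The share of other gene pairs whose ratio separates these groups was not computed. Of single tested genes, 33% did not overlap between the DMM groups and 4.4% between c-FosDCh DMM and contralateral libraries, in either direction. Between DMM and contralateral c-FosWT libraries the ratio differed by -0.43 with overlap (exact p = 0.171, adjusted 0.257). Across the 11 libraries the ratio had a Pearson r of -0.51 with the marrow score and of 0.46 with the cartilage score, as a description over libraries that share these differences in make-up. Over the single marker lists r ran from -0.6 (erythroid and osteoclast markers) to 0.46 (cartilage markers), and it was -0.55 with endothelial markers.

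**Figure D4:**
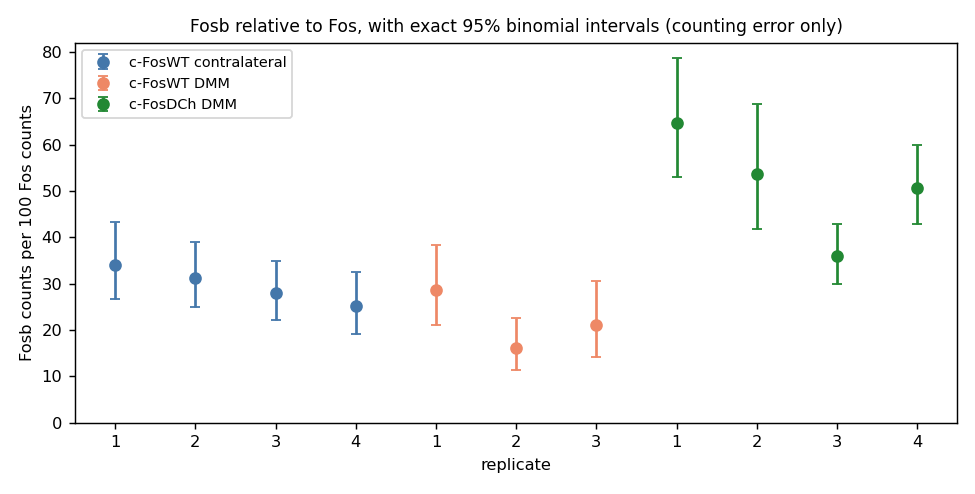
Fosb counts per 100 Fos counts in each library (vertical axis from 0), by group and replicate, with exact 95% binomial intervals that cover counting error only. The 4 libraries labelled c-FosDCh lie at 35.9 to 64.7 and the 7 c-FosWT libraries at 16.2 to 34.1.

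The ratio of Fosl2 to Fos was higher in all 3 c-FosWT DMM libraries than in any contralateral one. The log2 ratio of Fosl2 to Fos was higher by 0.89 in c-FosWT DMM than in contralateral libraries on average (exact p = 0.0571, adjusted 0.171). The ratio of Fosb to Fosl2 was lower by 1.32 on the log2 scale (a difference of -1.32) in the same comparison and higher by 1.93 between the DMM groups in the libraries labelled c-FosDCh, again without overlap and with an exact p of 0.0571 each. None of the 18 ratio tests passed 0.05 after adjustment, and the group sizes leave no room for a lower p in the comparisons with 3 libraries. Ratios with Fosl1 rested on 3 to 17 counts per library. Of these, Fosb to Fosl1 did not overlap between DMM and contralateral libraries (-0.56, exact p = 0.0571), and the other 8 overlapped. The share of other gene pairs without overlap was not computed for any ratio. Of single tested genes, 23.1% did not overlap between DMM and contralateral c-FosWT libraries and 33% between the DMM groups, in either direction.

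Fos and Fosb moved together across the libraries. Their log2 CPM had a Pearson r of 0.83 (permutation p = 0.002, adjusted over 6 pairs 0.012) and a Spearman rho of 0.85 (p = 0.0018, adjusted 0.011), over 11 libraries from 8 animals. Without c-FosWT DMM replicate 3 and c-FosDCh DMM replicate 4, the libraries farthest from the median of Fos, r was 0.66. For deviations from the group means it was 0.80 (permutation p = 0.0026). That permutation ran over all 11 libraries and ignored that each group's deviations are centred on its own mean, so this p may be too small. With 1 knee per animal r was 0.71 (exact permutation p = 0.051, adjusted 0.101). These 8 libraries were the contralateral and c-FosDCh DMM ones, so the whole c-FosWT DMM group was left out. The effect of using 1 knee per animal was thus not separated from that of leaving out this group. The correlation also missed the threshold after adjustment without c-FosWT DMM replicate 3 (0.76, adjusted p = 0.072) or c-FosDCh DMM replicate 4 (0.77, 0.067). The residuals from the marrow score had an r of 0.35 (permutation p = 0.30). Among the 12679 tested genes whose mean log2 CPM was 1 or more, 4.53% had a higher r with Fos than Fosb had, and 12.1% a higher r with Fosb than Fos had.

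The other 5 pairs did not pass after adjustment over the 11 libraries. Pearson r was 0.64 for Fos with Fosl1 (permutation p = 0.034, adjusted 0.069; rho 0.52, p = 0.11) and 0.66 for Fosb with Fosl1 (p = 0.026, adjusted 0.069; rho 0.57, p = 0.07). It was 0.42 for Fos with Fosl2 (p = 0.20; rho 0.11, p = 0.76), 0.39 for Fosb with Fosl2 (p = 0.25; rho 0.24, p = 0.49) and 0.53 for Fosl1 with Fosl2 (p = 0.084; rho 0.11, p = 0.75). The positive values with Fosl2 rested on c-FosDCh DMM replicate 4, since without it they were -0.09, -0.21 and -0.18. Leaving out the 2 farthest libraries gave -0.16, -0.30 and -0.13 for the same 3 pairs, and 0.37 and 0.41 for Fos and Fosb with Fosl1. Without c-FosDCh DMM replicate 1, Fos with Fosl1 (0.71, adjusted permutation p = 0.0497) and Fosb with Fosl1 (0.89, 0.00282) passed, as did Fos with Fosl1 without replicate 2 of that group (0.80, 0.0157). With 1 knee per animal r was 0.73 for Fosb with Fosl2 (exact permutation p = 0.022, adjusted 0.0767) and 0.73 for Fosl1 with Fosl2 (p = 0.026, adjusted 0.0767), above the 0.71 of Fos with Fosb. Here too the c-FosWT DMM group was left out.

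Each member was also set against the marrow score of the same library, over 11 libraries from 8 animals. The permutation tests treat these libraries as independent, and no values with 1 knee per animal are given. These relations had been planned as a description without a test. Pearson r was -0.87 for Fos (permutation p = 0.00021, adjusted over 8 relations 0.0017; rho -0.90, p = 0.00042), -0.84 for Fosb (p = 0.00044, adjusted 0.0018; rho -0.87, p = 0.00096) and -0.86 for Fosl1 (p = 0.00087, adjusted 0.0023; rho -0.70, p = 0.02, adjusted 0.054). Fos, Fosb and Fosl1 were thus lower where marrow markers were higher, and r stayed at -0.83, -0.77 and -0.70 once the 2 libraries farthest from the median score, c-FosDCh DMM replicates 3 and 4, were left out. For deviations from the group means r was -0.81, -0.74 and -0.78. The share of all tested genes with as strong an r with the marrow score is not given, so these values do not set the family apart from other genes. For Fosl2 r was -0.63 (p = 0.068, adjusted 0.089; rho -0.06, p = 0.86) and turned to 0.48 without these 2 libraries. Across the 10 marker lists, as a description over the same libraries, the r of Fosl2 was farthest from 0 with osteoblast (-0.84), macrophage (-0.77), granulocyte (-0.75) and endothelial markers (-0.72). With osteoblast markers it was -0.26 for Fos, -0.21 for Fosb and -0.31 for Fosl1. The library with the highest Fosl2 level, c-FosDCh DMM replicate 4, also had the lowest osteoblast, macrophage, granulocyte and endothelial scores (7.26, 4.24, 4.19 and 3.32). The r of Fosl2 with these lists thus leans on that library, and values without it are not given. With the cartilage score r was 0.55 for Fos (permutation p = 0.078; rho 0.66, p = 0.029), 0.61 for Fosb (p = 0.04; rho 0.52, p = 0.11), 0.58 for Fosl1 (p = 0.059; rho 0.59, p = 0.062) and 0.06 for Fosl2 (p = 0.85; rho -0.05, p = 0.88), and none passed after adjustment. Without c-FosWT DMM replicates 2 and 3, the libraries farthest from the median cartilage score, r was 0.53, 0.20, 0.31 and 0.42.

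**Figure D5:**
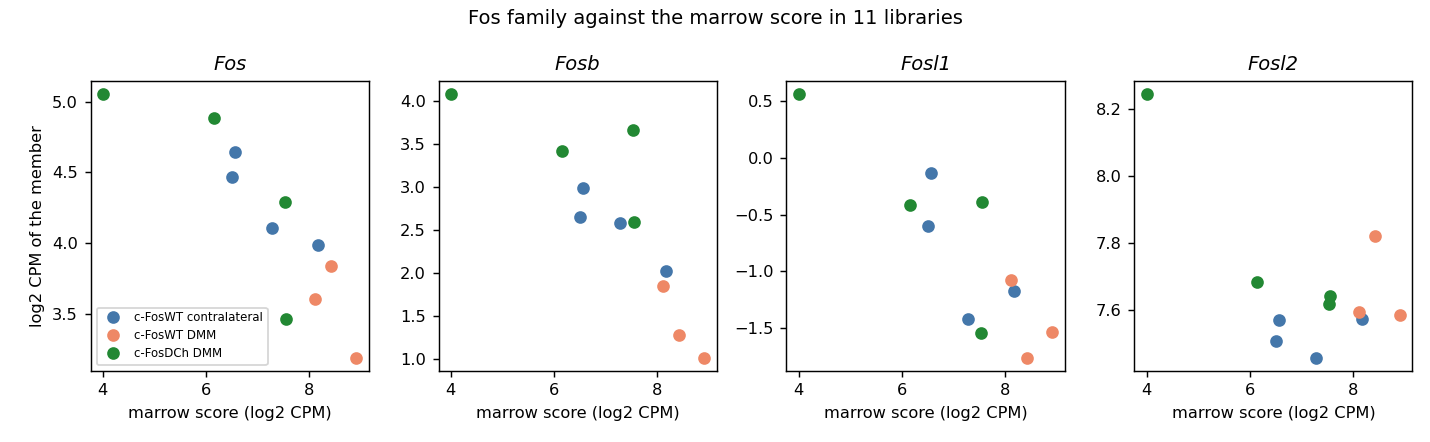
Log2 CPM of each Fos family member (vertical axes, 1 scale per gene) against the marrow score from 25 markers in log2 CPM (horizontal axis), with 1 point per library coloured by group. Fos, Fosb and Fosl1 fall as the score rises (Pearson r -0.87, -0.84 and -0.86), and the Fosl2 panel has 1 point apart at a score of 4.01.

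By the same measure of likeness, the genes whose log2 CPM followed each member most closely over the 11 libraries were listed. For Fos they were Rere, a transcriptional corepressor (r = 0.961), Foxp4, a forkhead factor (0.941), and Cth, an enzyme of cysteine synthesis (0.941), and the most opposed gene was Ppm1d, a protein phosphatase (-0.972). For Fosb they were Snx33, a sorting nexin (0.974), Pofut2, a protein O-fucosyltransferase (0.97), and Yap1, a co-activator of the Hippo pathway (0.968), with Palb2, a DNA repair protein, most opposed (-0.977). Fosl1 was followed by Glrx2, a glutaredoxin (0.944), the pseudogene Wdr46-ps (0.941) and Ttc37 (0.935), with Nkiras2 opposed (-0.976). Fosl2 was followed by Dcaf1 (0.927), Ankrd17 (0.923) and Ralgapa2 (0.921), with Manba, a lysosomal mannosidase, opposed (-0.937). An r above 0.9 was reached by 55 of the 12679 genes with Fos, 397 with Fosb, 31 with Fosl1 and 9 with Fosl2. These genes were picked as extremes, and all points share the differences in marrow RNA.

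The other AP-1 genes examined were 10, the Jun genes that encode the partners of Fos proteins, and Batf, Atf and Jdp2 genes, several of whose products pair with Jun proteins in place of Fos. Per kb of exon, Jund was the highest of the AP-1 genes, at mean levels of 81.2, 59.6 and 107 CPM per kb in contralateral, c-FosWT DMM and c-FosDCh DMM libraries. Junb followed with 28.8, 19.6 and 35.4 and Jun with 9.09, 7.04 and 11.9. Batf2 and Batf3 were the lowest of the 10, down to 0.0315 and 0.0392 in a library. The levels on the same scale were 19.1, 21 and 23.4 for Fosl2 and 8.47, 4.99 and 9.87 for Fos. Between the DMM groups 1 of the 10 was called higher and 0 lower, beside 10.6% and 3.79% of all genes, and DESeq2 called 4 higher. Without c-FosDCh DMM replicate 1 edgeR called 3 higher and 2 lower, and without replicate 2 it called 4 higher and 0 lower. Of all genes DESeq2 called 15.6% higher. The number edgeR called was 4449 without replicate 1 and 4626 without replicate 2, in place of 2616. The gene called by edgeR with all 11 libraries was Junb (45.0 ± 5.07 to 81.6 ± 26.8 CPM, log2 fold change 0.86 ± 0.23, edgeR adjusted p = 0.0392). Jund (0.84 ± 0.26, 0.0512), Jun (0.76 ± 0.26, 0.0667), Atf3, a stress-induced gene (0.69 ± 0.37, 0.182), and Batf, an immune cell factor (-0.67 ± 0.52, 0.338), did not pass. The 10 genes had a median log2 fold change of 0.27, beside -0.01 over all tested genes.

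After DMM in c-FosWT mice 0 of these 10 genes passed edgeR, with a median log2 fold change of -0.38 beside -0.01 over all genes. The lowest p-values were those of Atf7 (-0.48 ± 0.18, adjusted p = 0.2) and Junb (-0.56 ± 0.23, 0.219). Jund (-0.45 ± 0.25, 0.339), Atf3 (-0.53 ± 0.37, 0.421), Jun (-0.37 ± 0.26, 0.424) and Batf (0.14 ± 0.52, 0.886) gave higher ones.

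Of 24 genes that feed into Fos transcription, such as serum response factor, its co-factors, CREB proteins and MAP kinases, 1 was called higher and 0 lower between the DMM groups, beside 10.6% and 3.79% of all genes. With library totals 0 were called, and DESeq2 called 2 higher and 5 lower. Without c-FosDCh DMM replicate 1 edgeR called 2 higher and 4 lower, and without replicate 2 it called 4 higher and 2 lower. Of all genes 2157 were called with library totals and 5259 with DESeq2 (2890 higher and 2369 lower). The number edgeR called was 4449 without replicate 1 and 4626 without replicate 2, in place of 2616. The gene called by edgeR with all 11 libraries was Stat3, which binds the Fos promoter after cytokine signals (191 ± 11.1 to 259 ± 22.4 CPM, log2 fold change 0.44 ± 0.11, edgeR adjusted p = 0.0344). The list had a median of 0.04. After DMM in c-FosWT mice 0 of the 24 passed, and the lowest p-values were those of Mrtfb (-0.42 ± 0.13, adjusted p = 0.182) and Atf1 (0.37 ± 0.13, 0.191).

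Immediate early genes outside AP-1 are induced by many of the same signals as Fos and Fosb. Between the DMM groups 12 of 26 were called higher and 1 lower, beside 10.6% and 3.79% of all genes, with a median log2 fold change of 0.71 beside -0.01 over all genes. Arc rose by 1.55 ± 0.28, Ier3 by 1.36 ± 0.26, Socs3, an inhibitor of cytokine signalling, by 0.59 ± 0.12 and Maff, a small Maf factor, by 2.42 ± 0.51 on the log2 scale (edgeR adjusted p = 0.0332 each). After DMM in c-FosWT mice 0 of the 26 passed edgeR and DESeq2 called 5 (1 higher, 4 lower), beside 5.6% of all genes, while 20 of 26 had negative fold changes, with a median of -0.51. Ier3 (-1.15 ± 0.25) and Egr1 (-1.25 ± 0.31) had the lowest p-values, both with an adjusted p of 0.182.

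Of 14 tested genes known as AP-1 targets in connective tissue, 2 were called higher between the DMM groups and 0 lower, with a median of -0.38. Of all genes 10.6% and 3.79% were called, so this count is near the background. DESeq2, whose output held 16 listed genes, with or without an adjusted p, called 5 higher and 2 lower. For edgeR without c-FosDCh DMM replicate 2 the numbers were 3 higher and 4 lower. Of all genes DESeq2 called 15.6% higher and 28.4% in either direction, and edgeR without that replicate called 4626 genes, in place of 2616. The 2 called were Vegfa, an angiogenic growth factor (65.7 ± 13.9 to 179 ± 68.1 CPM, log2 fold change 1.45 ± 0.31, adjusted p = 0.0332), and Pdk1, a kinase that holds back pyruvate dehydrogenase (1.24 ± 0.33, 0.0401). Il6 and Mmp10 did not pass the filter on low counts. After DMM in c-FosWT mice 0 of 14 passed edgeR, and Vegfa (-0.91 ± 0.3, 0.184) and Timp1, a protease inhibitor (-0.9 ± 0.35, 0.207), had the lowest p-values. In each of these 4 lists 0 genes were called between the DMM groups with the marrow score as a covariate, and 0 when any of the 6 libraries on which the Fosb call depended was left out. The lists were not tested as sets.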

How the data were processed

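RNA of dissected knee articular cartilage was sequenced as directional poly(A) libraries with single reads, per the labels' protocols. The submitters' processing notes name bcl2fastq 2.19.1.403, STAR 2.6.1a, RSEM, DESeq2 1.22.2 and GRCm38. For the annotation release, the strand column and the role of RSEM, the sources used here give nothing. Each library has 1 deposited file of whole-number gene counts, laid out as STAR does it, with no normalization by the authors. The 4 read classes that are not genes (unmapped 7.33 to 26.33%, multimapping 6.79 to 10.19%, no feature 33.18 to 41.97%, ambiguous 0.62 to 0.94% of reads) stayed out of library sizes and tests. Counts were found for 246 of the 465 genes whose exons an antisense gene covers completely, in sum 0.99% of the counts of those covering genes. GENCODE M21 matched 55240 of 55421 genes by identifier. Fosl2 and Fosl1 promoters are not shown. Of the 4 members, 3 were in the RefSeq promoter table.

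Counts were analysed with edgeR 4.0.16 in R 4.3.3: after filterByExpr (18125 genes left) and TMM scaling, 1 quasi-likelihood fit (glmQLFit, robust) held all 11 libraries with group as the only term. Genes were called at a Benjamini-Hochberg adjusted p under 0.05. Log2 CPM used a prior count of 2. Alternatives used DESeq2 1.42.0, limma 3.58.1, other scalings, no filter, the compared groups alone, marrow, cartilage or muscle scores as covariates, and each library left out. Exact permutation tests were two-sided, and correlations used 100000 permutations. Files were handled with Python 3.11.15, pandas 2.3.3, numpy 2.4.6, scipy 1.17.1 and matplotlib 3.10.9. On simulated counts for the comparison of the DMM groups (17805 genes), 92.9% of 98 genes changed 4-fold and 12.4% of 97 changed 2-fold were recovered, and 0.02% of unchanged genes were called. The simulation drew genes independently, with the same biological spread for every gene and no difference in tissue make-up between libraries. Its rates therefore do not carry over to the real libraries, which differ in make-up.

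The members, gene lists and alternatives were chosen with earlier results of these data known. Named genes were all members, the 3 most alike and the 1 most opposed gene for each, Jun, Junb, Jund, Atf3 and Batf, and, of each list and main comparison, up to 4 called genes by smallest p or, where none was called, the 2 of smallest p. Libraries labelled c-FosDCh were numbered by accession order. The labels name 8 animals. Titles pair 3 DMM with 3 contralateral libraries by animal (DMM replicates 1, 2 and 3 with contralateral 1, 2 and 4), and deviations from group means of the paired libraries correlated at -0.17, -0.18 and 0.25. No within-group pair agreed within sampling noise (lowest chi-square per degree of freedom 31.03).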

Additional observations from a re-analysis of the deposited data

Results flagged for a closer look

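Fosl2 in c-FosDCh DMM replicate 4 lay far from the other libraries of its group. It measured 303 CPM, against 197 to 206 CPM in the other 3. With scaling by library totals it measured 248 CPM, against 192 to 196 CPM. The same library had the lowest marrow score of all, 4.01, and the part of marrow RNA in this value was not tested.

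The log2 ratio of Fosb to Fosl1 in contralateral replicate 1 was 3.99, against 3.12 to 3.25 in the other 3 libraries of its group, with a Fosl1 count of 4. A test at this level flags about 5% of groups by chance, and 36 groups were tested.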

How the results depend on the processing

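Between the DMM groups the Fosb log2 fold change kept its sign in every alternative, but the call was lost with only the compared groups in the fit (2.17), with the marrow (1.47), cartilage (1.91) or muscle score (2.3) as a covariate, with c-FosDCh DMM replicates 3 and 4 both left out (1.84) and by the exact permutation test (2.06), which cannot reach the threshold. Leaving out 1 library gave 1.92 to 2.41 for Fosb, 0.76 to 1.22 for Fos, 1.25 to 1.76 for Fosl1 and -0.03 to 0.21 for Fosl2. DESeq2 called Fos (0.96). Fosl2 turned negative with library totals (-0.05), the marrow covariate (-0.16) and on leaving out both c-FosDCh DMM replicates 3 and 4 (-0.05). The number of genes called, 2616, became 5259 with DESeq2, 1443 with no filter, 0 with only the compared groups, 0 with each of the 3 covariates and without replicates 3 and 4, and 0 to 4626 with 1 library left out. Scaling by library totals lowered the median log2 fold change of all genes by 0.17 (a shift of -0.17) and called 1176 genes higher and 981 lower, beside 1929 and 687 with TMM.

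Between DMM and contralateral c-FosWT libraries DESeq2 called 825 genes and Fosb (-1.19). With the animal as replicate block in the 3 pairs, the log2 fold changes were -0.69 for Fos, -1.18 for Fosb and 0.14 for Fosl2, and the log2 ratio of Fosb to Fos differed by -0.45. The block changed no call. The same 6 libraries with no block, an alternative chosen after seeing the data, gave -0.70, -1.18 and 0.15. Against contralateral libraries, Fos of the libraries labelled c-FosDCh turned to -0.12 with the marrow covariate, DESeq2 called 37 genes, and leaving out 1 library gave 0 to 1 called genes.

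The correlation of Fos with Fosb was 0.71 with 1 knee per animal (contralateral and c-FosDCh DMM libraries). It was 0.35 for residuals from the marrow score and 0.76 to 0.90 with 1 library left out. The residuals turned the other pairs to -0.45 (Fos with Fosl1), -0.33 (Fos with Fosl2), -0.23 (Fosb with Fosl1), -0.33 (Fosb with Fosl2) and -0.04 (Fosl1 with Fosl2). Leaving out 1 library gave 0.47 to 0.80, -0.09 to 0.49, 0.50 to 0.89, -0.21 to 0.57 and -0.18 to 0.71 for these pairs. Of the ratios, Fosl1 to Fos after DMM became -0.02 with a prior count of 0.5, and leaving out 1 library gave -0.02 to 0.43 after DMM, -0.21 to 0.45 between the DMM groups and -0.08 to 0.58 against contralateral libraries. Against contralateral libraries Fosl2 to Fos ranged from -0.12 to 0.34 and Fosl1 to Fosl2 from -0.07 to 0.42. The causes of these changes were not tested. The filter dropped Fosl1 in 6 of the 11 fits with 1 library left out, in those of the compared groups and in the block. Counts of 3 to 17 limit Fosl1.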
